A study of Mus musculus with 11 samples.

Results

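The clustered protocadherins were examined in the hippocampus of CD and FD F1 mice, as the 24 genes of the count tables whose symbols name them as members of the alpha, beta or gamma cluster, out of 38293 genes in all. They were 1 gene row of the alpha cluster, 22 of the beta cluster and 1 of the gamma cluster, and all 24 were counted in every mouse. RNA-seq libraries came from the hippocampi of 11 mice killed at 14 weeks of age, 6 CD mice (3 males and 3 females) and 5 FD mice (2 males and 3 females). All mice were wildtype F1 hybrids of 129S6/SvEv and C57BL/6J. CD dams received a control diet with 2.3 mg folic acid per kg, whereas FD dams received 40 mg per kg before mating only, and dams and offspring of both groups were on the control diet afterwards. The comparison asks whether the maternal diet before conception left a difference in offspring brain expression. The labels do not name the dams or litters, so that the spread between mice may include litter differences and p-values measure the spread between these mice alone.

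Clustered protocadherins are cell adhesion proteins of the cadherin superfamily that are made mainly in neurons. Each neuron switches on a small, largely random set of the alternative promoters of the clusters, and the resulting combination of surface proteins binds the same combination on another membrane, through which branches of 1 neuron recognise each other. In the alpha and gamma clusters every variable exon is spliced to constant exons shared by the whole cluster, which encode the common intracellular end of the proteins. Beta genes carry their whole coding sequence in their own exons and lack such a shared end. Promoter choice depends on DNA methylation, for which folate metabolism supplies methyl groups, on the architectural protein CTCF and on cohesin.

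In GENCODE M21 (mouse build GRCm38) the family has 58 genes on the plus strand of chromosome 18. The 14 alpha genes lie between 36930184 and 37187661, the 22 beta genes between 37264938 and 37524479, and the 22 gamma genes between 37661793 and 37841873. All 22 beta genes had rows of their own. The only alpha row was ENSMUSG00000007440 (chr18:37005203-37187657, named Pcdha11 in M21, which gives that symbol to ENSMUSG00000102206 as well, while RefSeq's gene at the row's start is Pcdha10), and the only gamma row was ENSMUSG00000023036 (chr18:37815079-37841873, named Pcdhgc4 in M21). The other 13 alpha and 21 gamma genes of M21, including the other C-type genes, have Ensembl numbers above the highest in the tables and have no row. Single alpha and gamma isoforms were therefore not resolved. In M21 both genes run to the shared end of their cluster, and no other counted gene overlaps their exons. If counting used such models, reads on the constant exons from any isoform of the cluster would fall on these rows. Whether the rows also hold reads on variable exons of other isoforms could not be told from the tables. These rows are called the alpha row and the gamma row here. M21 also places 4 gene models without rows on exons of the gamma row. No sequence of the locus is printed.

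Total counts on genes ranged from 11737554 to 44447006 per mouse, and 3 counts corresponded to 0.0675 to 0.2556 CPM (counts scaled to a common library size) before TMM scaling. Shares of reads are taken of those counted on genes, on no feature, as ambiguous or as aligned to several places. Reads that the counter placed on no feature made up 7.01% to 11.03% and are called reads outside genes here. Reads within introns may be among them. Reads that fell on exons of more than 1 gene (ambiguous) made up 1.38% to 1.499%, and reads aligned to several places 13.7% to 16.01%. The share outside genes was lowest in CD female 1 (7.01%), FD female 3 (8.18%) and FD female 1 (8.59%). All 9 markers of hippocampal neurons were present, with a summed level of 9620 to 11140 CPM per mouse. Choroid plexus markers, which come from tissue next to the hippocampus, summed to 34.5 to 85.9 CPM in CD mice and to 30.15 to 43.1 CPM in FD mice. Among them Ttr had 5.72 to 54.7 CPM in CD and 3.35 to 14.4 CPM in FD mice. Its log2 fold change was -1.19 (SE 0.4675, unadjusted p = 0.0212 in edgeR's test, not called after adjustment). Kl had 22.85 to 24.9 CPM in CD and 21.8 to 25.0 CPM in FD mice. Of the 6 markers, 5 were lower and 1 higher in FD mice.

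The gamma row was the most abundant of the family and the alpha row came next. In CD mice the gamma row had 683 CPM in the lowest, 715 in the median and 748 in the highest mouse. In FD mice it had 739, 678.5 and 751.5 CPM in the females and 704 and 645 CPM in the males. The alpha row had 194.6, 204 and 211 CPM in the lowest, median and highest CD mouse. FD mice had 206, 207 and 211.5 CPM in the females and 198 and 199.9 CPM in the males. Values of both rows overlapped widely between the diets. The sum of the 22 beta genes was 165, 181 and 186.5 CPM in the lowest, median and highest CD mouse, against 183, 179.9 and 177 CPM in FD females and 184 and 177.5 CPM in FD males. Together the family made up 1023 to 1140 CPM per mouse, of which the gamma row held 63.1% to 66.2%, the alpha row 18.03% to 19.6% and the beta genes 15.1% to 17.4%. These are shares of reads and not of molecules, because the length behind the alpha and gamma rows is not known. With the exons that M21 gives each row's own gene, the level was 38.0 ± 1.09 CPM per kb (SD, n = 11) for the alpha row and 127 ± 5.81 CPM per kb (SD, n = 11) for the gamma row. With all M21 exons of the whole cluster as length it was 5.00 ± 0.144 and 10.01 ± 0.459 CPM per kb (SD, n = 11). On either length, the alpha row lay above the median beta gene, which had 1.80 CPM per kb.

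**Figure D1:**
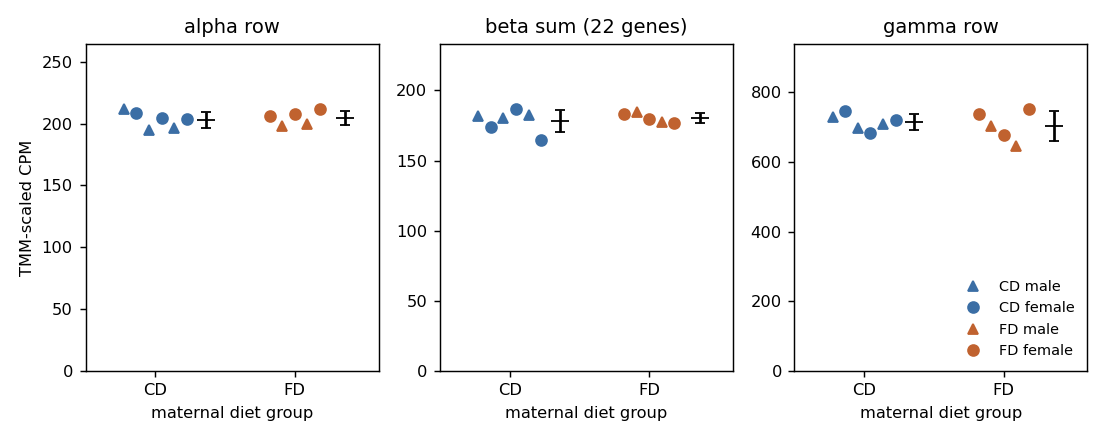
TMM-scaled CPM of the alpha row, the sum of the 22 beta genes and the gamma row in each mouse (y axis from 0, circles for females, triangles for males), with mean and SD of each diet group beside the points. CD and FD mice overlap in all 3 panels, with group means of 203 and 205 CPM for the alpha row, 178 and 180.4 CPM for the beta sum and 715 and 704 CPM for the gamma row.

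Levels differed more between beta genes than between mice. Pcdhb9 was highest, with 4.96 ± 0.393 CPM per kb of exon (SD, n = 11), followed by Pcdhb7 with 4.39 ± 0.358 and Pcdhb17 with 3.21 ± 0.200. Pcdhb9 was above every other beta gene in all 11 mice. Pcdhb7 also had the highest total count of the beta genes (3948 reads over the 11 mice). At the other end, Pcdhb1 had 0.123 ± 0.0538 CPM per kb and was the lowest in all 11 mice. Its count was 1 to 19 per mouse, so that its level was near the 3-count limit in the smaller libraries. Leaving Pcdhb1 aside, the other 21 beta genes covered a 4.73-fold range, down to Pcdhb21 with 1.05 ± 0.183 CPM per kb. Of the 21 pairs of genes next to each other in this order, 2 had ranges over mice that did not touch, Pcdhb7 above Pcdhb17 and Pcdhb21 above Pcdhb1. The other 19 neighbouring pairs overlapped, and the order in the middle of the list is not resolved by these mice.

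**Figure D2:**
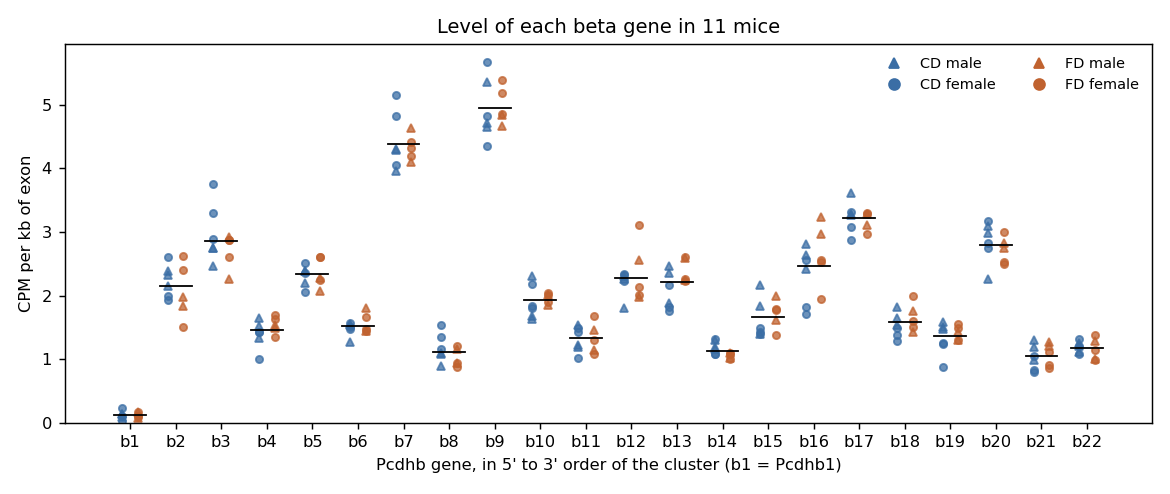
CPM per kb of exon (y axis from 0) of the 22 beta genes, placed in their order along the cluster, in each of the 11 mice (circles for females, triangles for males, CD left and FD right of each gene), with the mean over all mice as a black line. Pcdhb9 and Pcdhb7 stand above the rest at 4.96 and 4.39 CPM per kb, Pcdhb1 lies near 0, and CD and FD points of every gene overlap.

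The level had little relation to the position in the cluster. Spearman's rho between position and level per kb was -0.10 over the 22 genes and -0.26 without Pcdhb1, as a description over genes that share libraries and neighbouring promoters. The 12 genes Pcdhb1 to Pcdhb12 had a median of 2.04 CPM per kb and the 10 genes Pcdhb13 to Pcdhb22 one of 1.62. M21 gives the latter longer exons (median 4850 bases that no other gene's exons share, against 3492). All lengths are M21 gene models, and an untranslated end that the hippocampus does not use would lower the level per kb of a gene.

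Beta genes resemble each other in sequence, which bears on what can be counted with reads of 50 bases. Exact 50-base words shared with transcripts of other genes were found in 21 of the 22 genes and made up 0% of Pcdhb1, a median of 3.48% and at most 11.99% (Pcdhb12). Reads from such stretches were left out with the reads aligned to several places. When length was counted in words found in no other gene, 9 of the 22 genes changed rank, by at most 2 places. Pcdhb12 also overlaps the antisense gene model Gm37446, which has no row, and without a stated strand setting reads of both cannot be told apart. Exons of Pcdhb21 and Pcdhb22 overlap at their ends, where reads would be counted as ambiguous, and both levels rest on the remaining bases.

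The alpha row was among the steadiest genes of the dataset, in a ranking that was not matched for read depth. The SD between mice within diet groups on the log2(CPM + 0.5) scale was 0.0433 for the alpha row, below which lay 0.859% of the 14437 genes that averaged 1 CPM or more. For the gamma row it was 0.0692, with 10.5% of these genes below it, and the median of these genes was 0.130. The beta genes, which have far fewer reads, had a median SD of 0.179. Counting error alone gives an SD of 0.0832 to 0.168 for the beta genes other than Pcdhb1, and the spread between mice was 1.39 times that value at the median. It was larger than the counting SD in 19 of these 21 genes and more than 2 times as large in Pcdhb16 (3.05 times) and Pcdhb19 (2.16 times). Pcdhb14 and Pcdhb6 varied no more than counting error allows (0.926 and 0.844 times). The 0.5 added to CPM shrinks the spread of genes with few CPM and has no part in the counting SD. Ratios of such genes are therefore somewhat too low. The gamma row, whose counting SD was only 0.0123, varied 5.62 times as much as counting error, and the alpha row 1.90 times. Counting error here covers the sampling of reads only. The spread was taken within diet groups with both sexes together, so that any sex difference, as in Pcdhb16, is part of it.

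**Figure D3:**
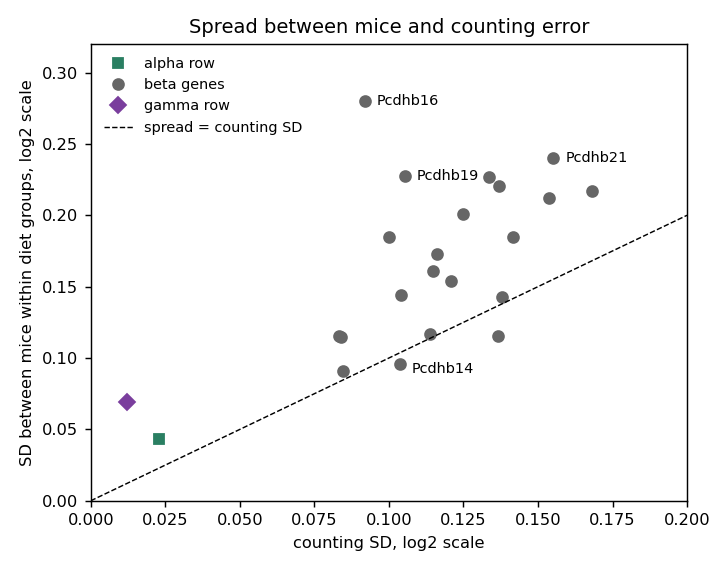
SD between mice within the diet groups, sexes together (y axis, log2(CPM + 0.5)), against the SD from counting alone (x axis, log2 scale). Points are the alpha row, the gamma row and 21 beta genes, Pcdhb1 left out for its low counts. The dashed line marks equality, 19 of the 21 beta genes lie above it, and Pcdhb16 lies farthest above it among the beta genes, at 0.280 against 0.0920.

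None of the 24 genes differed between FD and CD mice in edgeR's quasi-likelihood test at an adjusted p under 0.1. Across all 20589 genes tested, 14 passed, a share of 0.0680%. At an unadjusted p under 0.05 the family count was 0 of 24, where all genes gave 2.59%, and DESeq2 gave 0 of 24 at either limit. The smallest unadjusted p in edgeR's test were 0.0506 for Pcdhb14 and 0.0834 for Pcdhb13, so that this 0 turns on a value at the limit. This unadjusted count was 2 with sex as covariate (Pcdhb13 and Pcdhb16) and 3 in the replicate block (Pcdhb3, Pcdhb13 and Pcdhb16). There the log2 fold change of Pcdhb16 was 0.23 and 0.27 in place of 0.17, with an adjusted p of 0.922 and 0.464 in edgeR's test. Females alone gave 2 (Pcdhb13 and Pcdhb19), males alone 1 (Pcdhb16), and the share of reads outside genes as covariate 1 (Pcdhb14). Leaving out single mice gave 0 or 1. The share of all genes at this limit is given only for the edgeR fit of all mice without covariates. The counts of the other fits therefore have no share to be set against and are not read as a result about the family. For 0 of the 24 did the values of CD and FD mice fall apart without overlap, against 0.505% of all genes. Differences were scattered around 0, with 14 genes higher and 10 lower in FD mice and a median log2 fold change of 0.03, beside -0.0040 over all genes tested. In bulk tissue, fewer cells of a type and less RNA per cell cannot be told apart.

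The alpha row had a log2 fold change of 0.01 (SE 0.0427, adjusted p = 1) with a 95% interval from -0.08 to 0.10, which corresponds to 0.947 to 1.07 times the CD level. For the gamma row it was -0.02 (SE 0.0492, adjusted p = 1), from -0.13 to 0.08, or 0.916 to 1.06 times. The sum of the beta genes, a description without a test, had a log2 ratio of group means of 0.02. Shifts of either row beyond these bounds lie outside the intervals, whereas for beta genes other than Pcdhb1 the widest bounds were -0.47 and 0.47, equal to 0.722 and 1.39 times the CD level. Pcdhb1, with few reads, had an interval from -0.86 to 0.68.

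Among the beta genes Pcdhb14 had the smallest p (chr18:37447656-37456350). It had 9.39, 10.2 and 11.4 CPM in the lowest, median and highest CD mouse, and 8.75, 9.52 and 9.40 CPM in FD females and 8.81 and 9.54 CPM in FD males. FD mice occupied the lower end of the range, with overlap at 9.39 to 9.54 CPM. Its log2 fold change was -0.17 (SE 0.0788, adjusted p = 1 in edgeR's test). Pcdhb13, its neighbour upstream (chr18:37442500-37446209), pointed the other way. CD mice had 6.52, 7.51 and 9.12 CPM in the lowest, median and highest mouse, and FD mice had 8.25, 8.38 and 9.69 CPM in females and 8.33 and 9.62 CPM in males. FD mice lay in the upper part of the CD range or above it, and the log2 fold change was 0.19 (SE 0.103, adjusted p = 1 in edgeR's test). Pcdhb8 followed, with 3.12, 3.95 and 5.38 CPM in the lowest, median and highest CD mouse and 3.05 to 4.21 CPM in FD mice (log2 fold change -0.18, SE 0.138, adjusted p = 1 in edgeR's test). The most abundant beta genes stayed near 0, with log2 fold changes of 0.02 for Pcdhb9 (SE 0.0778), -0.03 for Pcdhb7 (SE 0.0781) and -0.02 for Pcdhb17 (SE 0.0699).

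**Figure D4:**
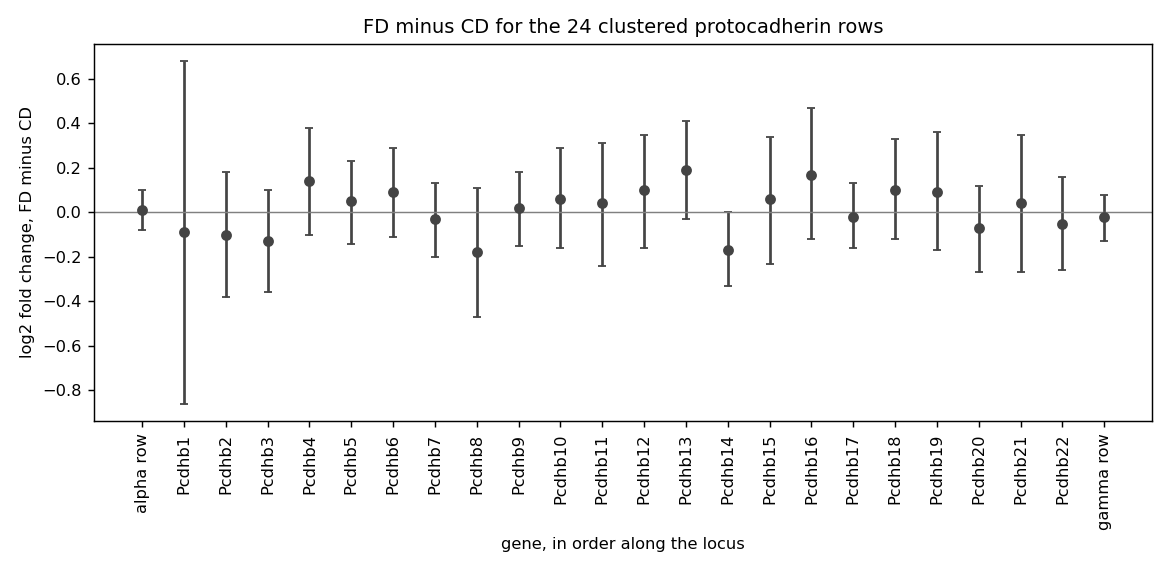
Log2 fold change of FD minus CD mice (y axis, points) with its 95% interval (bars) for the 24 genes in their order along the locus (x axis). Every interval includes 0, the alpha and gamma rows have the narrowest intervals, and Pcdhb1 has the widest, from -0.86 to 0.68.

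Whether the diet difference itself depended on sex was tested as an interaction. None of the 24 passed the adjusted threshold, as did 0 of all 20589 genes (0%), and DESeq2 gave 0 of the 24 as well. At an unadjusted p under 0.05, 1 of the 24 passed, where all genes gave 1.90%. This was Pcdhb19. CD females had 6.31, 8.96 and 8.86 CPM and CD males 11.3, 10.7 and 10.5 CPM. FD females had 10.6, 11.04 and 9.27 CPM, close to FD males with 10.1 and 9.33 CPM. CD females were thus below CD males without overlap, while FD mice of both sexes overlapped. Since the gene was picked for the smallest interaction p of the 24, this pattern describes that choice and adds no support. The share of all genes with such a split among the CD mice was not computed. The interaction was -0.54 on the log2 scale (SE 0.197, adjusted p = 1 in edgeR's test), with a 95% interval from -0.96 to -0.13. It was -0.36 without CD female 1, the mouse with 6.31 CPM, and ran from -0.63 to -0.36 on leaving out single mice. CD female 1 also had the lowest share of reads outside genes (7.01%). The interaction was not fitted with this share as covariate or without the 3 females with the lowest share. Over all 17 fits the unadjusted p of the interaction test ran from 0.00575 to 0.054. In females only, Pcdhb8 had a log2 fold change of -0.38 (SE 0.178) and in males only of 0.04 (SE 0.182), and its interaction had an adjusted p of 1.

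Male and female mice differed in 2 beta genes when diet was held as a covariate. Pcdhb16 and Pcdhb21 were both higher in males, about 1.32 and 1.31 times the female level. Of all genes tested, 6.11% passed the adjusted threshold and 3.07% passed it with higher values in males. The 2 of 24 (8.33%) are near the first share and above the second, a difference that rests on 2 genes and was not tested. In 0 of the 24 genes were males and females apart without overlap, against 1.78% of all genes. For Pcdhb16 (chr18:37477814-37483038) females had 8.92, 11.7 and 13.4 CPM in the lowest, median and highest mouse, and males had 13.8, 12.6, 14.7, 15.5 and 16.9 CPM. CD male 2, with 12.6 CPM, was the male that overlapped the females. The log2 fold change was 0.40 (SE 0.0997, adjusted p = 0.0665 in edgeR's test). For Pcdhb21 (chr18:37513621-37518325) females had 3.395, 3.74 and 4.72 CPM in the lowest, median and highest mouse and males 5.09, 5.56, 4.22, 5.38 and 5.16 CPM. CD male 3 was the male that overlapped the females, and the log2 fold change was 0.39 (SE 0.114, adjusted p = 0.084 in edgeR's test). Pcdhb3 had the next smallest p, in the other direction, with 9.90, 10.9 and 14.2 CPM in the lowest, median and highest female and 8.56 to 11.1 CPM in males (log2 fold change -0.24, SE 0.0915, adjusted p = 0.146 in edgeR's test).

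Both calls lay close to the threshold and changed with the mice included, while the log2 fold changes stayed between 0.35 and 0.49 for Pcdhb16 and between 0.36 and 0.45 for Pcdhb21 on leaving out single mice. Pcdhb16 lost its call when any of CD male 1, CD female 1, CD male 2, CD male 3, CD female 3, FD female 1, FD male 2 or FD female 3 was left out (adjusted p from 0.1 to 0.17), and Pcdhb21 lost it without CD male 1, CD female 1, CD male 2, CD female 3, FD female 1, FD male 1, FD male 2 or FD female 3 (0.123 to 0.199). Pcdhb3 passed without CD female 2, FD male 1 or FD female 2 (0.0738 to 0.0998). Over all genes the number called went from 1257 to between 18 and 3244 in these fits. The share of reads outside genes moved with sex, at 7.01% to 10.5% in females and 8.95% to 11.03% in males. With this share as a covariate the log2 fold changes were 0.30 for Pcdhb16 (adjusted p = 0.65) and 0.24 for Pcdhb21 (adjusted p = 0.693), and without the 3 females with the lowest share they were 0.31 (adjusted p = 0.638) and 0.27 (adjusted p = 0.679). Of the oligodendrocyte markers, Mbp, Mog and Mag had log2 fold changes of -0.13 (SE 0.0775, adjusted p = 0.361), -0.27 (SE 0.101, adjusted p = 0.139) and -0.32 (SE 0.108, adjusted p = 0.11) in males against females, with summed levels of 1635 to 2442 CPM in females and 1679 to 2117 CPM in males. Astrocyte markers summed to 1268 to 1418 CPM in females and 1250 to 1317 CPM in males (1 of 4 called, Gfap lower in males). Those of hippocampal neurons summed to 10020 to 11140 CPM and 9620 to 10640 CPM (1 of 9 called, Zbtb20 higher in males). The median log2 fold change of the neuron list was -0.07, opposite to Zbtb20, and that of the astrocyte list -0.13. Of all genes, 6.11% were called. With the share of reads outside genes as covariate, Gfap had -0.18 in place of -0.17 (adjusted p = 0.621 in edgeR's test). Zbtb20 had 0.13 in place of 0.40 (adjusted p = 0.704). Of the markers of inhibitory neurons, oligodendrocyte precursors, microglia, endothelium and choroid plexus none was called between the sexes, and no marker of these lists was called for diet. The markers given here for oligodendrocytes, astrocytes and hippocampal neurons were all above 1 CPM in at least 1 mouse, and their part in the result was not tested.

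Along the beta cluster the sign of the sex difference changed in the middle, a pattern chosen after the values were seen and given without a test. From Pcdhb1 to Pcdhb12, 10 of 12 genes were lower in males, with a median log2 fold change of -0.07. From Pcdhb13 to Pcdhb22, 9 of 10 were higher in males, with a median of 0.14, whereas the median of all genes tested was -0.0045. Of these 22 genes, Pcdhb16 and Pcdhb21 alone passed the threshold. With the share of reads outside genes as covariate the medians were -0.04 and 0.08, with 8 of 12 genes below 0 and 8 of 10 above it, and without the 3 females with the lowest share they were -0.04 and 0.12, with 7 of 12 below 0 and 7 of 10 above it. The longer exons of the later genes were given above, and the part of length was not tested. For the diet comparison the medians of these stretches were 0.03 and 0.05. Between the beta and gamma clusters, Taf7 (a subunit of a general transcription factor) and 3222401L13Rik had sex differences of -0.06 and -0.02 on the log2 scale, and Slc25a2 (a mitochondrial carrier) had too few reads for a fold change. Gm26672, a gene model inside the gamma cluster, had one of -0.03.

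**Figure D5:**
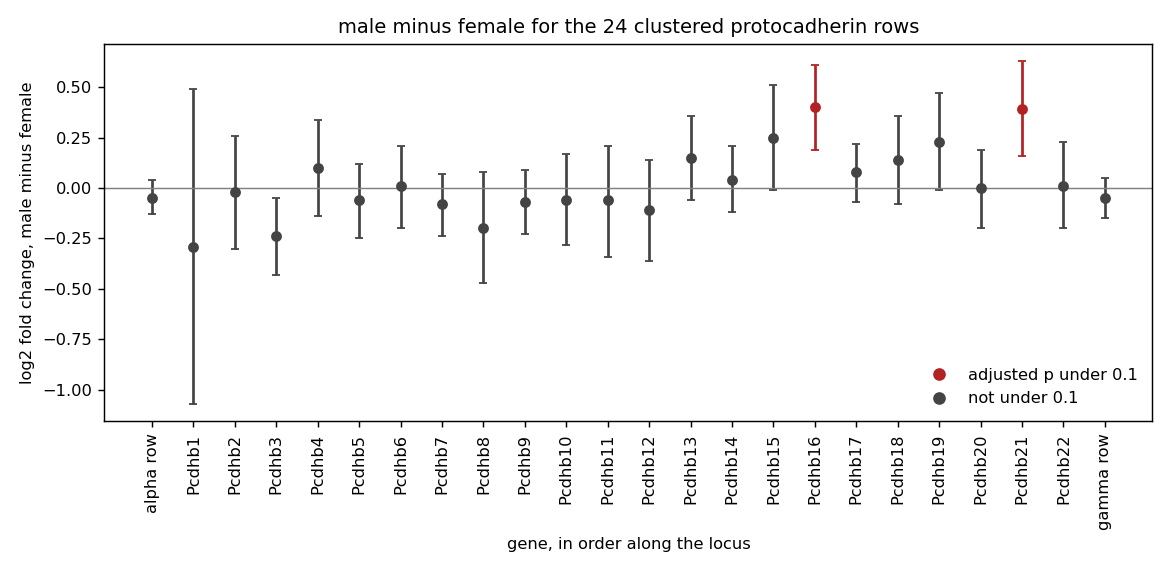
Log2 fold change of male minus female mice (y axis, points) with its 95% interval (bars) for the 24 genes in their order along the locus (x axis), red where the adjusted p was under 0.1. Pcdhb16 and Pcdhb21 are red at 0.40 and 0.39, most points before Pcdhb13 lie just under 0, and most from Pcdhb13 on lie above it.

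Factors that act on promoter choice and chromatin of the clusters were each above 1 CPM in at least 1 mouse. Of 22 such genes, 0 passed the adjusted threshold for diet in edgeR's test and 0 had an unadjusted p under 0.05, with 14 higher and 8 lower in FD mice and a median log2 fold change of 0.01. Smchd1, a chromatin protein that silences the clusters among other loci, had the smallest p, with medians of 53.6 CPM in CD and 58.3 CPM in FD mice (log2 fold change 0.08, SE 0.0566, adjusted p = 1). Ehmt2, a histone H3 lysine methyltransferase, followed with 187 and 181 CPM (log2 fold change -0.09, SE 0.0602, adjusted p = 1). In the comparison of the sexes 2 of the 22 were called, both higher in males, where 6.11% of all genes were called and 3.07% were higher in males. They were Nipbl, which loads cohesin onto DNA (log2 fold change 0.33, SE 0.0752, adjusted p = 0.0631), and Smc3, a core subunit of cohesin (log2 fold change 0.17, SE 0.0525, adjusted p = 0.092). With the share of reads outside genes as covariate, which left 9 calls over all genes, they had 0.23 (adjusted p = 0.633) and 0.23 (adjusted p = 0.559). Over the whole list of 22 the median log2 fold change of males against females was 0.10, beside -0.0045 over all genes tested. The list summed to 1846 to 1989 CPM in females and 1988 to 2069 CPM in males. The share of calls in the list rests on 2 genes and was not tested.

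Binding partners and processing enzymes of the proteins also showed no call for diet, at 0 of 21 by the adjusted threshold and 0 of 21 by an unadjusted p under 0.05, with 5 higher and 16 lower in FD mice and a median log2 fold change of -0.02. Psenen, a subunit of the gamma-secretase that cleaves protocadherins in the membrane, had medians of 3.56 and 3.28 CPM in CD and FD mice (log2 fold change -0.17, SE 0.122, adjusted p = 1). Ptk2b, a kinase that the intracellular ends of alpha and gamma proteins inhibit, had 1157 and 1097 CPM (log2 fold change -0.06, SE 0.0556, adjusted p = 1). None of the 21 was called between the sexes.

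A list of 12 protocadherins encoded outside the clusters, which are single genes with promoters of their own, had 0 calls for diet and 0 at an unadjusted p under 0.05. Of these, 8 were higher and 4 lower in FD mice, and the median log2 fold change was 0.02. Pcdh1 had medians of 405.5 and 391 CPM (log2 fold change -0.06, SE 0.0484, adjusted p = 1), and Pcdh15, known for its role in the tip links of inner ear hair cells, had 11.4 and 12.3 CPM (log2 fold change 0.20, SE 0.192, adjusted p = 1). Pcdh15 was the only one called between the sexes, higher in males by 0.52 on the log2 scale (SE 0.144, adjusted p = 0.077 in edgeR's test). This 1 of 12 stands beside 6.11% of all genes called and 3.07% called higher in males, and rests on 1 gene. With the share of reads outside genes as covariate Pcdh15 had 0.32 (adjusted p = 0.677).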

How the data were processed

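Hippocampal RNA-seq libraries (50 bp single end) of 6 CD and 5 FD mice were analysed. The authors trimmed reads, used STAR for alignment to mm10 and deposited raw counts of uniquely aligned reads per gene. They name featureCounts as counter, although the summary lines resemble HTSeq output. Which annotation release they used is not given in the sources used here. Reads on exons of more than 1 gene and reads aligned to several places are outside these counts.

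Of 38293 Ensembl IDs, 36345 (94.91%) were matched to GENCODE M21, and 24 had a clustered protocadherin symbol. Members and lists were chosen with earlier results of these data known. Genes that reached 10 counts over all mice were tested with edgeR 4.0.16 in R 4.3.3 (quasi-likelihood, TMM, Benjamini-Hochberg over all 20589 genes, threshold 0.1), for diet without covariates, for sex with diet as covariate, and for their interaction. DESeq2 1.42.0 was an alternative. Standard errors are the log2 fold change divided by the square root of F. Levels are TMM-scaled CPM, and levels per kb use exon bases that no other counted gene shares. Scripts were tested on simulated data. Cluster sums were given as values without a test.

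Genes named in the text were the alpha and gamma rows, the 3 beta genes with the smallest p for diet, the highest and lowest beta gene per kb and the highest by counts, the 3 genes with the smallest p for sex, the 1 for the interaction, and from each list the calls and the 2 smallest p for diet. Other genes were named after their values were seen. The rule also names C-type genes and the smallest p within each cluster, which the single alpha and gamma rows could not provide. Alternatives were other scaling (RLE), filters, DESeq2, covariates, each sex alone, a replicate block and leaving out each mouse. Alternatives on the share of reads outside genes, and length in words of 50 bases found in no other gene, were chosen after seeing the data. The marker list of oligodendrocytes is reported only in part here.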

Additional observations from a re-analysis of the deposited data

Results flagged for a closer look

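Among 50 groups of mice examined for outliers (24 genes and the beta sum, in each diet group), 2 had a mouse set apart from the others by more than Dixon's 95% limit, and chance flags about 5% of groups. Pcdhb6 had 4.80 CPM in CD male 1, where the next CD mouse had 5.53 CPM. Pcdhb12 had 5.45 CPM in CD male 2, where the next CD mouse had 6.79 CPM. In both cases the mouse was the lowest of the 6 CD mice, and FD mice of that gene did not go as low. Their log2 fold changes for diet were 0.09 (SE 0.0944) and 0.10 (SE 0.120), with an adjusted p of 1 in edgeR's test.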

How the results depend on the processing

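The count of 0 members called for diet was the same under all 22 alternatives (smallest adjusted p of a member 0.464, in edgeR's test with the replicate block), and that of 0 for the interaction under all 16. For sex, 2 members were called, and 0 to 3 on leaving out single mice, 0 without the diet covariate, 0 with the share of reads outside genes as covariate and 0 without the 3 females with the lowest share. Across all 20 fits the log2 fold change between the sexes ran from 0.30 to 0.49 for Pcdhb16 and from 0.24 to 0.45 for Pcdhb21, with adjusted p from 3.26e-04 to 0.65 and from 0.0266 to 0.693, the lowest for Pcdhb16 with no count filter. The cause was not tested. Genes called over the whole table for sex went from 1257 to 37 without the covariate, 9 with the share as covariate and 11 without those 3 females, and to 2645 with no filter and 2043 with DESeq2. For diet they went from 14 to 8 with edgeR's own filter, 1 with at least 10 counts in every mouse, 3 to 12 without single mice, 22 with the share as covariate, 2 without those 3 females, 1 in females and 2 in males. For sex they went to 18 to 3244 without single mice. For the interaction they went from 0 to 10 with no filter and to 0 or 1 without single mice.

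Mice with the same sex and number in both groups correlated by 0.0743 to 0.232 over genes, values that still hold the sex difference. Since 1 of the 5 pairs was under 0.1, the main fits did not pair the mice by number. With the mean of each diet and sex group taken out, these 5 pairs had 0.0373 to 0.1384 (mean 0.0717). The 10 pairs of the same sex but another number had -0.1485 to 0.0821 (mean -0.0356). Whether the numbers mark a pairing was not tested. In the replicate block 0 members and 23 genes in all were called for diet, and the log2 differences of the alpha row, the beta sum and the gamma row were 0.00, 0.02 and -0.03. Without single mice they ran from 0 to 0.02, from -0.01 to 0.03 and from -0.05 to 0.01. No called member changed sign. Among the genes named by rule for diet, Pcdhb1 without CD female 1 (0.21 in place of -0.09) and Pcdhb8 in males only (0.04 in place of -0.18), both uncalled, turned by more than the spread between mice. Length by mappability to the genome was not run, since no genome was used here. Depth limits Pcdhb1 most, at 1 to 19 reads per mouse.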
